A study of Mus musculus with 8 samples.

Results

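The genes described here are Nfe2l2, which encodes the transcription factor NRF2, and 9 genes of antioxidant enzymes, Gclc, Gclm, Txnrd1, Srxn1, Sod2, Sod3, Cat, Gpx3 and Prdx6. They are 10 of the 33027 genes in the expression matrix and were chosen by name, with earlier results of these data known. For each mouse, the level of a gene in a cell type is the mean over the cells of that type of its transcripts per 10,000 transcripts of the cell, so n counts mice throughout. The question asked of them was how these levels differ between lung cell types and between cigarette smoke (CS) and room air (RA).

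NRF2 is the main regulator of the transcriptional response to oxidants and electrophiles, both of which cigarette smoke carries in abundance. In resting cells KEAP1 binds NRF2 and hands it to a CUL3 ubiquitin ligase for degradation, so that much of its control lies in protein stability and not in transcript level. When KEAP1 is modified, NRF2 accumulates, pairs with a small MAF protein and binds antioxidant response elements in the promoters of its target genes, where BACH1 competes for the same sites. Among the genes here, Gclc and Gclm encode the catalytic and modifier subunits of the enzyme that begins glutathione synthesis. Txnrd1 encodes the cytosolic thioredoxin reductase, and Srxn1 encodes sulfiredoxin, which restores overoxidised peroxiredoxins. Sod2 and Sod3 encode the mitochondrial and the extracellular superoxide dismutase. Cat (catalase), Gpx3 (the secreted glutathione peroxidase) and Prdx6 (a peroxiredoxin with phospholipase activity) remove peroxides.

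Lungs came from 4 CS and 4 RA mice of the strain C57BL/6. All 8 carried Sftpc-CreERT2-mTmG, in which tamoxifen switches cells that express Sftpc from a red to a green reporter, and all received tamoxifen at 8 to 10 weeks of age. From 2 weeks later littermates breathed room air or the smoke of research cigarettes for 10 months, so that tamoxifen, Cre and reporter were common to both groups. Cells were digested with collagenase and elastase, and cells with and without CD45 were mixed in a set ratio before capture, which sets the share of immune cells. Its part in the levels within a named type was not tested.

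The 40074 cells used fell into 32 cell types named by the study, of which 22 had enough cells for the exposure test. CS mice gave 3317 to 6153 cells and 33145096 to 48490570 unique molecular identifiers (UMIs), and RA mice gave 2553 to 6371 cells and 31094695 to 52753531 UMIs. Each of the 4 sequencing lanes named in the labels held 1 CS and 1 RA library, and 197 cell barcodes occurred in more than 1 library. RA mouse F1 stood apart, being farthest from the median of the 8 mice in 15 of the 17 types with enough cells in every mouse. All 4 CS libraries went against their labelled sex, with Xist at 7.18 and 7.44 transcripts per 10,000 in the mice labelled male (C2 and C5) and the Y-linked Ddx3y at 0.692 and 0.827 in those labelled female (D2 and D5), while the 4 RA libraries matched. Most named types were highest for their markers, such as Ager at 165 in alveolar type I (AT1) cells against 8.24 in the next type, and Foxj1 at 6.74 in ciliated cells against 1.2. Of the 3 club markers, Scgb3a2 was highest in goblet cells (246 against 89.6 in club cells) and Cyp2f2 in basal cells (69.5 against 59.1). Cells labelled mast cells had Cpa3 at 6.87 and Ms4a2 at 4.71, but Mcpt4 at 0 and Kit at 0.113. They also had Il4 at 24.0 and Cd200r3 at 9.76, and are given here under that label only.

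In GRCm38 the members lie apart from each other and all are protein coding. Nfe2l2 is at chr2:75675513-75704641 and Cat at chr2:103453849-103485160, both on the minus strand, and Srxn1 at chr2:152105516-152111376 on the plus strand. Gclc is at chr9:77754535-77794485, Gclm at chr3:122245557-122270732, Txnrd1 at chr10:82833951-82897712, Sod2 at chr17:13006846-13040063, Sod3 at chr5:52363791-52371418 and Gpx3 at chr11:54902453-54910377, all on the plus strand. Prdx6 is at chr1:161240112-161251219 on the minus strand. Prdx6b, a near-identical copy of Prdx6, reached at most 0.00991 transcripts per 10,000 in any type. Gclm and Txnrd1 overlap the antisense genes Gm17494 and Gm38560, which reached at most 0.112 and 0.0561. On the same strand Gclm overlaps Gm6061 by 492 bases, Txnrd1 overlaps Eid3 by 1305 and Nfe2l2 overlaps Gm24996 by 99, and none of these is in the expression matrix.

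Promoter windows from RefSeq (GRCm38.p6, 250 bases before to 50 after a start site) were at hand for 7 members, all but Gclc, Sod3 and Prdx6. The core of the antioxidant response element, TGACNNNGC on either strand, was found in the windows of Nfe2l2, Srxn1 and Gclm and in 1 of the 3 windows of Txnrd1, and not in those of Cat, Gpx3 and Sod2. Over all 27025 genes with a window, 14.0% held it. These stretches are shown because they carry the motif of the pathway, read 5′ to 3′ on the strand of the gene, with the motif in capitals as it reads on that strand. The first 3 end 31 bases before the start site, and that of Srxn1 lies just after it. Nfe2l2 carries the motif in its own orientation and the other 3 carry it reversed.
Nfe2l2 chr2:75704694-75704913: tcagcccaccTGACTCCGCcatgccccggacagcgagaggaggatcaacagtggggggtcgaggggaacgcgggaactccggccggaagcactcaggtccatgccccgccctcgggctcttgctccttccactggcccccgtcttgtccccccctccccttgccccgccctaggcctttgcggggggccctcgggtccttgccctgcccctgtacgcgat
Gclm chr3:122245307-122245526: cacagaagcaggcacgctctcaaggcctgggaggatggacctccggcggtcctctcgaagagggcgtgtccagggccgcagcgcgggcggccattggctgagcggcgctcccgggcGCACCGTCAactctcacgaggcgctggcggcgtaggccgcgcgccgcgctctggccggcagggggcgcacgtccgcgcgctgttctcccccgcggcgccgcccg
Txnrd1 chr10:82858956-82859175: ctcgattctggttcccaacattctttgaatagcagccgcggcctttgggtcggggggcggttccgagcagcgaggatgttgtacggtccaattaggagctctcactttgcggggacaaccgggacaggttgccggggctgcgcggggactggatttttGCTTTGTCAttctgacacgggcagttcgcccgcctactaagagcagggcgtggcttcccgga
Srxn1 chr2:152105542-152105571: gcagtgggcaGCTAGGTCAgagtgagacac
A match is a description of these letters only, and no measurement of binding is part of these data.

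**Figure D1:**
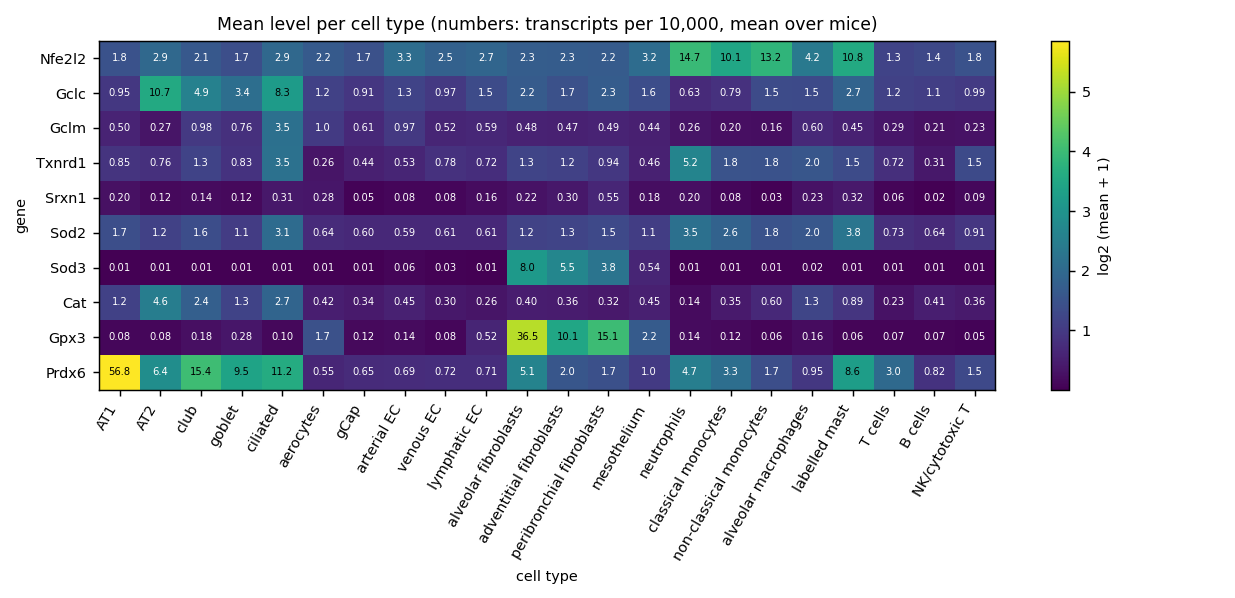
Level of each member (rows) in each of 22 cell types (columns), as the mean over mice of transcripts per 10,000, with colour on the scale log2 of the mean plus 1. Prdx6 peaks in AT1 cells at 56.8, Gpx3 and Sod3 are concentrated in fibroblasts, and Nfe2l2 is highest in neutrophil granulocytes and nonclassical monocytes.

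As a share of the transcripts of a cell, Nfe2l2 was highest in myeloid cells. Over the 17 types measured in all 8 mice it was highest in neutrophil granulocytes, at 14.7 ± 2.29 transcripts per 10,000 (SD, n = 8), followed by classical monocytes at 10.1 ± 1.74 and alveolar macrophages at 4.19 ± 0.987. Nonclassical monocytes and mast-labelled cells, with enough cells in 7 mice each, held 13.2 ± 1.75 and 10.8 ± 1.70. The neutrophil level exceeded the classical monocyte level in 8 of 8 mice, a fold of 1.46 (exact sign-flip permutation, adjusted p = 0.0130 over the 10 members). That order was read from the same mice it was tested on, here and for the other members. Below the macrophages the levels came down in small steps, from 3.28 in arterial endothelium to 1.29 in T cells, and from arterial endothelium down no neighbour in the order differed from the next beyond the spread between mice. Epithelium sat inside that range, with 2.95 in ciliated, 2.93 in alveolar type II (AT2) and 1.78 in AT1 cells. Nfe2l2 was found in 88.5% of neutrophil granulocytes and 91.7% of classical monocytes, and in 94.5% of ciliated and 89.2% of AT2 cells. The types differ in depth, with median UMIs per cell of 1734 to 2528 in CS neutrophil granulocytes and 14558 to 20340 in CS ciliated cells. Levels per 10,000 therefore do not order the types by transcripts per cell.

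The 2 subunits of the glutathione synthesis enzyme peaked in different epithelial cells. Among the types measured in all 8 mice, Gclc was highest in AT2 cells at 10.7 ± 2.26 (SD, n = 8). Ciliated cells followed at 8.34 ± 0.733, then club cells at 4.92 ± 1.15 and goblet cells at 3.36 ± 1.07. Basal cells held Gclc at 9.68 ± 3.14 in 4 mice. The AT2 level exceeded the ciliated level by a fold of 1.28 and in 7 of 8 mice (exact sign-flip permutation, adjusted p = 0.0335), a call lost in 6 of the 8 fits without 1 mouse, all but those without C2 or C5 (adjusted p = 0.0670 in each). Gclm was highest in ciliated cells at 3.50 ± 0.313. Of the types measured in all 8 mice the next was aerocytes (the capillary cells labelled EC_capillary_A), at 1.01 ± 0.243. The ciliated level was 3.48-fold above it (adjusted p = 0.0130, exact sign-flip permutation). Basal cells, with enough cells in 4 mice, held Gclm at 1.58 ± 0.241, between these 2 types. Aerocytes, club cells at 0.981 and arterial endothelium at 0.966 could not be ordered for Gclm. AT2 cells, the highest type for Gclc, held Gclm at only 0.274 ± 0.0816.

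The thioredoxin genes Txnrd1 and Srxn1 had different patterns over the types. Txnrd1 was highest in neutrophil granulocytes at 5.23 ± 1.40 (SD, n = 8), 1.48-fold above ciliated cells at 3.53 ± 0.757 and higher in 7 of 8 mice (exact sign-flip permutation, adjusted p = 0.0488). That call was lost with summed counts (adjusted p = 0.0586) and in 7 of the 8 fits without 1 mouse, all but that without C2 (adjusted p up to 0.0977). Alveolar macrophages held Txnrd1 at 1.99 and classical monocytes at 1.83. Txnrd1 was found in 61.7% of neutrophil granulocytes, which have fewer UMIs per cell, and in 94.0% of ciliated cells. Srxn1 was scarce in every type, with 0.307 ± 0.103 in ciliated cells and 0.296 ± 0.119 in adventitial fibroblasts, and those 2 types did not differ beyond the spread between mice (adjusted p = 0.859, exact sign-flip permutation). Peribronchial fibroblasts held 0.545 ± 0.531 in 6 mice, a spread as wide as the mean.

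Among the superoxide dismutases, Sod2 was broad and Sod3 almost confined to fibroblasts among the 22 types. Sod2 was at 3.51 ± 1.36 in neutrophil granulocytes, 3.11 ± 0.410 in ciliated cells and 2.60 ± 1.85 in classical monocytes (SD, n = 8), and the first 2 did not differ beyond the spread between mice (adjusted p = 0.720, exact sign-flip permutation). Mast-labelled cells held 3.84 ± 1.08 in 7 mice. Its lowest type of the 22, arterial endothelium, still held 0.594. Sod3 was at 8.04 ± 1.54 in alveolar fibroblasts, 5.46 ± 0.722 in adventitial fibroblasts and, in 6 mice, 3.79 ± 0.899 in peribronchial fibroblasts. Alveolar exceeded adventitial fibroblasts for Sod3 in 8 of 8 mice, a fold of 1.47 (adjusted p = 0.0130, exact sign-flip permutation). Mesothelium held Sod3 at 0.536, and no other of the 22 types exceeded 0.0603. Smooth muscle cells, which had too few cells for the exposure test, held it at 4.24 over 3 mice.

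The peroxide-removing enzymes each had their own leading type. Among the types measured in all 8 mice, ciliated and club cells came next for both Cat and Prdx6. Cat was highest in AT2 cells at 4.59 ± 0.613 (SD, n = 8), 1.70-fold above ciliated cells at 2.7 ± 0.700, with club cells next at 2.44 ± 0.335. Gpx3 was highest in alveolar fibroblasts at 36.5 ± 12.4, 3.63-fold above adventitial fibroblasts at 10.1 ± 4.31, and peribronchial fibroblasts held 15.1 ± 4.84 in 6 mice. Among the types measured in all 8 mice, Prdx6 was highest in AT1 cells at 56.8 ± 14.9, 3.68-fold above club cells at 15.4 ± 3.04. Ciliated cells at 11.2, goblet cells at 9.46 and AT2 cells at 6.37 followed. Basal cells held Prdx6 at 16.6 ± 4.15 in 4 mice, and mast-labelled cells at 8.60 ± 1.74 in 7 mice. Each of these 3 leading types was above the next type measured in all mice, and was so in 8 of 8 mice (exact sign-flip permutation, adjusted p = 0.0130 for Cat, Gpx3 and Prdx6). The 2 alveolar epithelial types were thus in 1 order for Prdx6 and in the other for Cat, which was at 1.19 ± 0.255 in AT1 cells.

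Genes with the most similar profiles over the 22 types, among 6848 genes that reached 1 transcript per 10,000 in some type, are given by Pearson's r as a description. Nfe2l2 was most like Igsf6 (r = 0.949), Nadk (0.937) and Cd300a (0.924), all led by myeloid types. Gclc was most like Ank3 (0.920), Arhgef38 (0.917) and Smim6 (0.907), which were highest in AT2 cells, and Gclm like Plcb3 (0.958), Zdhhc1 (0.954) and Pcnx4 (0.937), which were highest in ciliated cells. Txnrd1 was most like Prdx5 (0.872), which encodes another peroxiredoxin, then Glipr1 (0.861) and Cln3 (0.837). Sod2 was most like Ftl1 (0.857), the ferritin light chain, then Pygl (0.851) and again Prdx5 (0.846). Sod3 followed Steap3 (0.989), Col6a3 (0.987) and Unc5c (0.987), and Gpx3 followed C1qtnf7 (0.981), Prdm6 (0.971) and Ndrg2 (0.970), all highest in fibroblasts. Cat followed Dcxr (0.905), Atp7b (0.902) and Pon3 (0.901), and Prdx6 followed the AT1-enriched Eya2 (0.875) and Scnn1a (0.859). The types come from the same libraries and differ widely in depth per cell, and Srxn1 was too low to be ranked.

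Between CS and RA, none of the 10 members passed the test in any cell type. Of 220 pairs of member and type, 173 passed the filter (the gene found in at least 10% of cells) and were tested with limma. After Benjamini-Hochberg adjustment over all genes of a type, 0 had an adjusted p under 0.05. Without adjustment 26 of the 173 had a p under 0.05, 9 higher and 17 lower in CS, against 15.1% of all gene tests in these types. The CS and RA mice did not overlap in 12 of the 173, 4 higher and 8 lower in CS, against 5.91% and 4.64% of all gene tests. Without RA mouse F1, a comparison added after seeing the data, the counts were 5 higher and 12 lower, against 7.49% and 6.44%. Regardless of any test, 76 of the 173 differences were above 0 and 97 below.

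The share of all genes that passed in each type sets the scale for these counts of 0. It was highest in general capillary (gCap) cells, labelled EC_capillary_B, at 10.8%, then ciliated cells at 4.55%, adventitial fibroblasts at 3.3%, AT1 cells at 2.44%, aerocytes at 2.07% and alveolar fibroblasts at 1.62%. Arterial endothelium was at 0.671%, alveolar macrophages at 0.632%, mesothelium at 0.316%, goblet cells at 0.217%, club cells at 0.184% and venous endothelium at 0.133%. In AT2 cells, B cells, T cells, cytotoxic NK and T cells, classical and nonclassical monocytes, neutrophil granulocytes, mast-labelled cells, lymphatic endothelium and peribronchial fibroblasts 0% of genes passed, so there no member could be read against other calls.

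**Figure D2:**
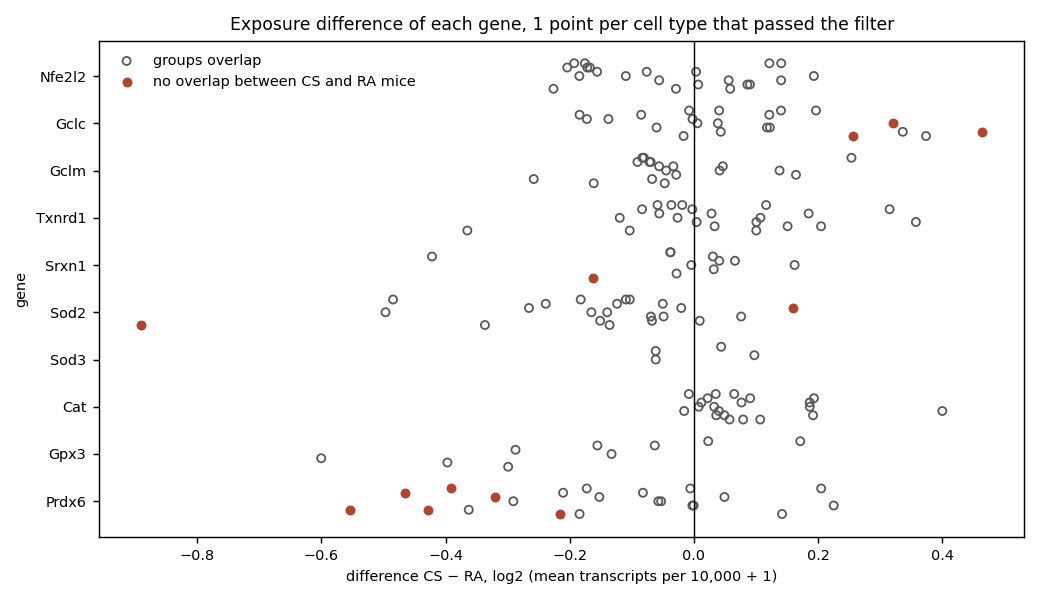
Difference between CS and RA of each member, on the scale log2 of the mean plus 1, with 1 point per cell type in which the gene was tested and points coloured red where the CS and RA mice did not overlap. Prdx6 and Sod2 lie mostly below 0 and Cat mostly above 0, with the 6 red points of Prdx6 all below 0.

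Among the members, Prdx6 had the most types in which the groups separated, 6 of 22, all lower in CS. Over all members, 8 of 173 tests were lower in CS without overlap, against 4.64% of all gene tests. In AT1 cells, its leading type, CS mice held 46.6, 48.4, 50.8 and 42.6 transcripts per 10,000 (C2, C5, D2 and D5, the order used throughout), and RA mice 90.0, 55.0, 61.4 and 59.7 (F1, F3, M1 and M3). Every CS mouse was below every RA mouse, as for 443 of all 8646 genes tested in AT1 cells, and F1 was far above the rest. The means were 47.1 ± 3.48 and 66.5 ± 15.9 (SD, n = 4 each), a ratio of 0.708, and the log2 difference was -0.47 (SE 0.145, adjusted p = 0.103). The exact permutation p was 0.0286, the smallest that 4 mice against 4 can give. Over the 5 AT1 markers, all detected, the summed level in the same cells was 256 to 301 in CS and 305 to 346 in RA mice, and its part in the Prdx6 difference was not tested.

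The same order was seen in 5 other types. CS was lower without overlap for 618 of all 8200 genes tested in alveolar fibroblasts, 234 of 11409 in club cells and 180 of 8840 in AT2 cells. In goblet cells it was so for 148 of 11523 genes, and in classical monocytes for 153 of 6624. Alveolar fibroblasts held Prdx6 at 3.43, 4.12, 4.57 and 3.49 in CS and 8.93, 6.49, 4.77 and 5.13 in RA mice, a ratio of 0.616 and a log2 difference of -0.55 (SE 0.160, adjusted p = 0.0879). Club cells held 11.8, 12.4, 14.8 and 13.0 against 19.7, 15.0, 18.6 and 18.1, a log2 difference of -0.43 (SE 0.156, adjusted p = 0.380). In both types the highest CS mouse lay just under the lowest RA mouse. AT2 cells held 6.29, 5.44, 5.70 and 4.81 against 8.46, 6.75, 6.70 and 6.85, a log2 difference of -0.32 (adjusted p = 0.637). Goblet cells held 8.07, 7.10, 9.54 and 7.58 against 10.9, 11.2, 10.8 and 10.5 (-0.39, adjusted p = 0.482). Classical monocytes held 2.88, 3.12, 3.14 and 2.88 against 3.66, 4.06, 3.20 and 3.73 (-0.22, adjusted p = 0.513).

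Ciliated cells were among those with a higher mean of Prdx6 in CS, with 10.0, 9.78, 17.6 and 11.6 in CS against 9.88, 8.39, 11.7 and 10.5 in RA mice, a log2 difference of 0.23 (SE 0.166, adjusted p = 0.435), where D2 alone lay above the RA mice. Means were also higher in CS in alveolar macrophages (1.10 against 0.790, log2 difference 0.20, adjusted p = 0.718, the CS mouse higher in 4 of 4 lanes) and arterial endothelium (0.773 against 0.601, 0.14, adjusted p = 0.542). Adventitial fibroblasts were at a mean of 1.95 in both groups. Lower values in CS held in 18 of the 22 types tested for Prdx6, and in 15 of 22 without F1. The summed level of the 5 AT1 markers, which would mark AT1 transcripts in other cells, was 0.860 to 1.32 in CS and 0.712 to 1.37 in RA mice in alveolar fibroblasts, and 11.2 to 13.9 against 13.2 to 17.2 in AT2 cells. In T cells, where Prdx6 was at 2.49 ± 0.182 in CS and 3.58 ± 1.06 in RA mice (n = 4 each, ± SD) and the groups overlapped, it was 1.05 to 1.47 against 0.974 to 1.63. The part of AT1 transcripts in the Prdx6 differences of these types was not tested.

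**Figure D3:**
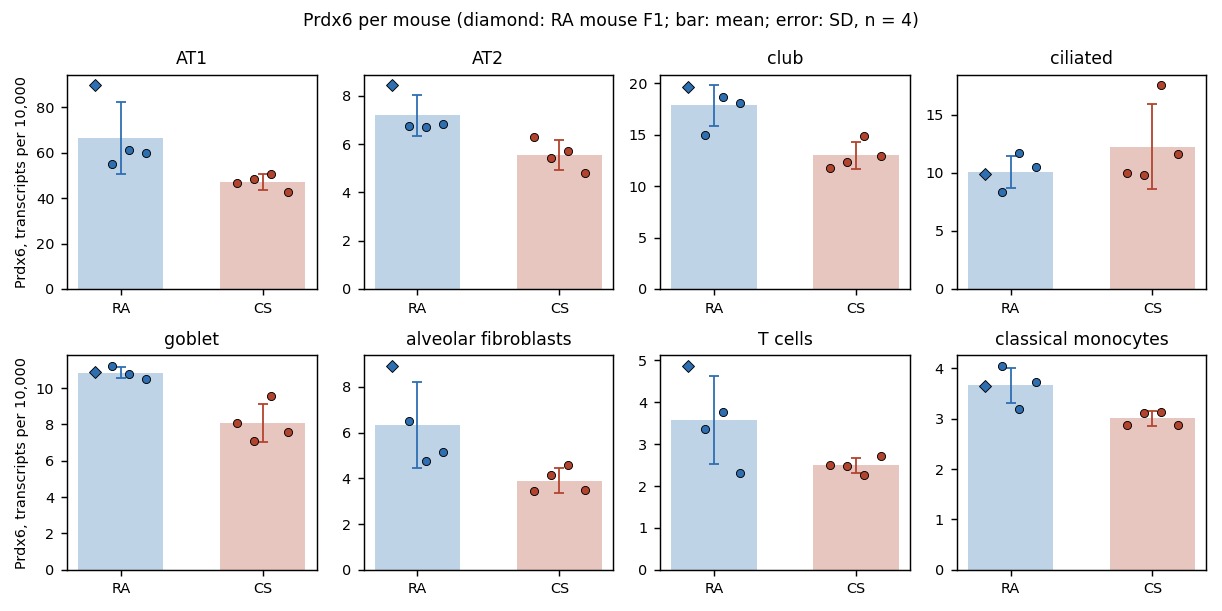
Prdx6 level per mouse, in transcripts per 10,000, in 8 cell types, with CS and RA mice as points, the mean ± SD as bars and RA mouse F1 as a diamond. CS mice lie below RA mice without overlap in AT1, AT2, club and goblet cells, alveolar fibroblasts and classical monocytes, and the groups overlap in ciliated and T cells.

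Sod2 was lower in CS in 19 of 22 types, and in 18 of 22 without F1. Classical monocytes held 0.912, 1.82, 1.32 and 1.68 in CS and 6.57, 4.00, 2.26 and 2.20 in RA mice, without overlap, a ratio of 0.381 and a log2 difference of -0.89 (SE 0.238, adjusted p = 0.323). CS was lower without overlap for 153 of all 6624 genes tested in these cells. F1 was again the highest for Sod2. In that mouse the summed level of the 5 alveolar macrophage markers in classical monocytes was 239, against 6.79 to 31.7 in the other 7, and the part of this in the Sod2 value was not tested. Neutrophil granulocytes held 1.68, 4.85, 2.78 and 1.95 against 4.65, 3.89, 5.28 and 2.98 (-0.50, adjusted p = 0.364), and alveolar macrophages 0.857, 2.03, 1.41 and 1.72 against 3.0, 3.15, 1.46 and 2.47 (-0.48, adjusted p = 0.355). Both overlapped between groups. The summed level of a list of 10 genes that respond to tissue dissociation, such as Fos and Jun, was 39.9 to 51.1 in CS and 51.6 to 73.0 in RA alveolar macrophages, and was not tested as a part of the difference.

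AT2 and AT1 cells went opposite ways for Sod2. In AT2 cells the CS mice held 1.24, 1.46, 1.30 and 1.37 and the RA mice 1.2, 1.16, 1.10 and 0.924, so that the lowest CS mouse was above the highest RA mouse, a ratio of 1.22 and a log2 difference of 0.16 (SE 0.0627, adjusted p = 0.670). CS was higher without overlap for 212 of all 8840 genes tested in AT2 cells. In AT1 cells the CS mice held Sod2 at 1.35, 1.54, 1.60 and 1.24 against 2.50, 1.72, 1.58 and 1.74 in RA mice, with the CS mouse lower in 4 of 4 lanes, a log2 difference of -0.24 (SE 0.0954, adjusted p = 0.202). The difference between these differences, tested per mouse with limma over the 7625 genes measured in both types, was 0.40 (SE 0.0847, adjusted p = 0.0451) and passed, as did 1.09% of all genes. It did not pass with lane as a term (adjusted p = 0.0833) or with a pseudocount of 0.1 (adjusted p = 0.122), nor in 7 of the 8 fits that left out 1 mouse (adjusted p from 0.0518 to 0.124), the exception being RA mouse M1 (0.0291). Over 4 pairs of related types 34 such member tests were made, and this was the 1 that passed.

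**Figure D4:**
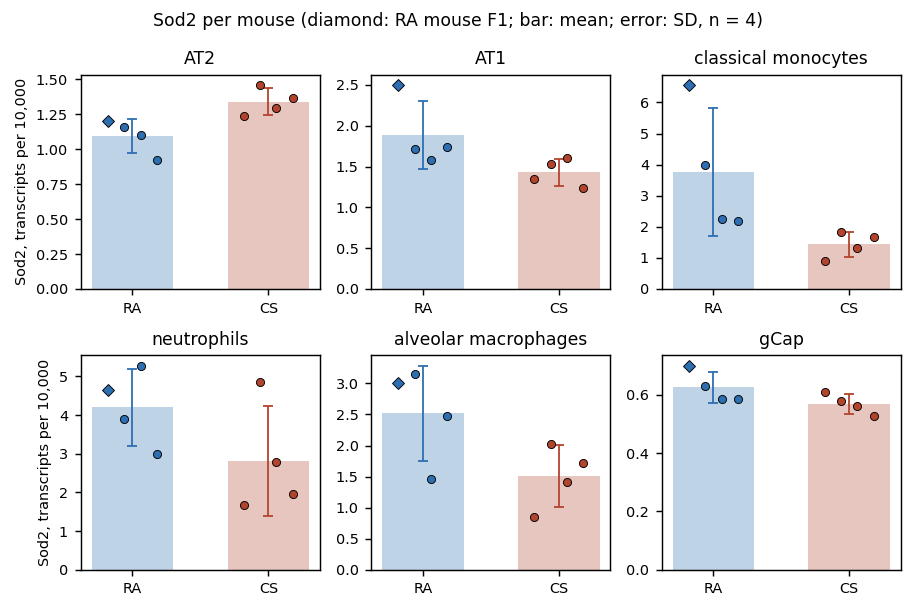
Sod2 level per mouse, in transcripts per 10,000, in 6 cell types, with CS and RA mice as points, the mean ± SD as bars and RA mouse F1 as a diamond. CS mice lie above RA mice in AT2 cells and below them in classical monocytes without overlap, and the groups overlap in AT1 cells, neutrophil granulocytes, alveolar macrophages and gCap cells.

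In the other 3 pairs no member passed. Prdx6 came closest, between club and ciliated cells, with a difference of differences of -0.65 (SE 0.109, adjusted p = 0.0541), against 0.144% of all genes passing in that pair. Between alveolar and adventitial fibroblasts Prdx6 differed by -0.55 (SE 0.133, adjusted p = 0.220, 0.0755% of genes passing). Between gCap cells and aerocytes 0.0852% of genes passed, and Prdx6 differed by -0.08 (SE 0.0695, adjusted p = 0.787).

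Sod3, the extracellular dismutase, was at 8.49, 7.67, 8.20 and 6.70 in CS and 6.03, 7.0, 9.51 and 10.7 in RA alveolar fibroblasts, overlapping fully, with a log2 difference of -0.06 (SE 0.159, adjusted p = 0.851). In adventitial fibroblasts the means were 5.54 ± 0.511 and 5.38 ± 0.969 (SD, n = 4 each). Over the 4 types in which it was tested its log2 differences ran from -0.06 to 0.10.

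Cat was higher in CS in 19 of 21 types, by small steps. Ciliated cells held 3.32, 2.56, 3.46 and 3.45 in CS and 1.43, 2.29, 2.74 and 2.36 in RA mice, overlapping only where C5 fell under M1, a ratio of 1.45 and a log2 difference of 0.40 (SE 0.124, adjusted p = 0.0912). AT2 cells held 5.06, 5.58, 4.77 and 4.40 against 3.52, 4.72, 4.57 and 4.14 (0.19, SE 0.107, adjusted p = 0.762), and club cells 2.46, 2.7, 2.65 and 2.85 against 1.90, 2.02, 2.60 and 2.36 (0.19, SE 0.0961, adjusted p = 0.518). The CS mouse was the higher in 4 of 4 lanes in both of these types, and the groups overlapped. Without F1, which had the lowest Cat in each of these 3 types, 17 of 21 types were still higher in CS.

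For Gpx3, mouse F1 was the highest of the 8 in 5 of the 7 types tested in all of them. Alveolar fibroblasts held 26.7, 29.5, 34.1 and 32.4 in CS and 66.4, 32.4, 35.5 and 35.2 in RA mice (log2 difference -0.40, SE 0.192, adjusted p = 0.243). Aerocytes held 1.38, 1.39, 1.33 and 1.47 against 4.15, 1.35, 1.29 and 1.62 (-0.29, SE 0.205, adjusted p = 0.392). In both types the other 3 RA mice were near the CS mice. Adventitial fibroblasts held 5.26, 6.04, 8.36 and 11.1 against 17.9, 6.60, 13.2 and 11.9 (-0.60, SE 0.263, adjusted p = 0.200), with overlap.

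Among the glutathione synthesis genes, the groups separated for Gclc in T cells, B cells and classical monocytes, where it is scarce, and it passed in none of them. T cells held 1.32, 1.48, 2.15 and 1.33 in CS and 0.610, 1.02, 0.790 and 1.01 in RA mice, a ratio of 1.84 and a log2 difference of 0.46 (SE 0.112, adjusted p = 0.135). B cells held 1.21, 1.40, 1.29 and 1.46 against 0.388, 0.855, 1.19 and 1.18 (0.32, SE 0.131, adjusted p = 0.360), and classical monocytes 1.02, 1.08, 0.850 and 0.843 against 0.520, 0.664, 0.695 and 0.643 (0.26, SE 0.0826, adjusted p = 0.353). In these 3 types every RA mouse was under the lowest CS mouse. So it was for 369 of all 6009 genes tested in T cells, 256 of 5862 in B cells and 245 of 6624 in classical monocytes. Club cells held Gclc at 5.26, 5.36, 5.12 and 6.46 in CS and 3.39, 3.0, 5.65 and 5.13 in RA mice, with overlap (0.34, SE 0.171, adjusted p = 0.526), and ciliated cells differed by 0.12 (adjusted p = 0.394), the CS mouse being the higher in 4 of 4 lanes. In T cells the dissociation response genes summed to 28.7 to 32.1 in CS and 35.7 to 44.3 in RA mice, also without overlap, and their part was not tested. AT2 cells held Gclc at 10.8 ± 3.28 in CS and 10.6 ± 1.06 in RA mice (n = 4 each, ± SD), with a log2 difference of 0.00 (SE 0.169).

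Gclm was at 3.87, 3.43, 3.96 and 3.59 in CS and 3.37, 2.98, 3.47 and 3.31 in RA ciliated cells, with C5 under M1, a log2 difference of 0.14 (SE 0.0652, adjusted p = 0.225). In club cells it was at 1.06, 1.02, 1.06 and 1.22 against 0.666, 0.762, 1.10 and 0.952 (0.16, SE 0.0758, adjusted p = 0.492). It was below RA in 13 of its 18 types tested, the farthest being peribronchial fibroblasts, with 3 mice in each group, at -0.26 (SE 0.172). The highest difference was of like size, in alveolar macrophages, at 0.25 (SE 0.133, adjusted p = 0.575), with means of 0.750 in CS and 0.456 in RA mice that overlapped, and the CS mouse the higher in 4 of 4 lanes.

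The thioredoxin genes came closest to the threshold in ciliated cells. Txnrd1 was at 4.02, 3.39, 4.77 and 4.19 in CS and 2.61, 2.78, 3.57 and 2.92 in RA mice, with only C5 under the highest RA mouse, a ratio of 1.38 and a log2 difference of 0.36 (SE 0.0973, adjusted p = 0.0651). Srxn1 was at 0.329, 0.322, 0.451 and 0.416 against 0.208, 0.165, 0.353 and 0.210, with C2 and C5 under M1, a ratio of 1.62 and a log2 difference of 0.16 (SE 0.0470, adjusted p = 0.0759). Cat, Txnrd1 and Srxn1 in ciliated cells passed when the sex read from each library's own Xist and Ddx3y was added as a term, an alternative chosen after seeing the data (adjusted p = 0.0458, 0.0270 and 0.0245). Txnrd1 there also passed without CS mouse C5 (adjusted p = 0.0390), and both Txnrd1 and Srxn1 passed without RA mouse M1 (adjusted p = 0.0396 and 0.0207).

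Outside ciliated cells the 2 genes had no common direction. Txnrd1 was at 1.48, 1.69, 1.24 and 1.46 in CS and 1.18, 1.15, 1.28 and 0.955 in RA alveolar fibroblasts (0.20, SE 0.0803, adjusted p = 0.163), and at 0.910, 1.57, 1.56 and 1.85 against 3.06, 2.09, 1.75 and 1.86 in classical monocytes (-0.37, SE 0.149, adjusted p = 0.447). In neutrophil granulocytes, its leading type, the mean was 5.23 in both groups. Srxn1 was at 0.224, 0.235, 0.196 and 0.229 in CS and 0.550, 0.236, 0.383 and 0.317 in RA adventitial fibroblasts, without overlap though C5 and F3 all but met (-0.16, SE 0.0610, adjusted p = 0.144). CS was lower without overlap for 575 of all 9157 genes tested in these cells.

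Nfe2l2 itself differed little between CS and RA. Neutrophil granulocytes held 10.6, 13.7, 14.4 and 18.1 in CS and 14.1, 13.8, 16.8 and 16.0 in RA mice (-0.11, SE 0.161, adjusted p = 0.835), and classical monocytes 6.73, 9.26, 9.12 and 12.0 against 10.4, 10.6, 10.3 and 12.1 (-0.23, SE 0.146, adjusted p = 0.622). Both overlapped, and in monocytes the CS mouse was the lower in 4 of 4 lanes. AT1 cells held 1.85, 1.49, 1.57 and 1.57 against 1.95, 2.0, 1.75 and 2.07 (-0.17, SE 0.0762, adjusted p = 0.267), and gCap cells 1.30, 1.77, 1.64 and 1.58 against 2.19, 1.79, 1.71 and 1.91 (-0.17, SE 0.0758, adjusted p = 0.138). Over all 22 types its log2 differences ran from -0.23 to 0.19, and 10 were above 0.

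With every type given equal weight, each member had 1 value per mouse over the 17 types measured in all 8. Sod2 differed by -0.18 on the log2 scale and Cat by 0.09 (exact permutation p = 0.0571 each), and Prdx6 by -0.17 (exact permutation p = 0.0857), with adjusted p = 0.286 over the 10 members for all 3. The CS mouse was the lower in 4 of 4 lanes for Sod2, Prdx6 and Nfe2l2 and the higher in 4 of 4 for Cat. Gpx3 differed by -0.11, Gclc by 0.08 and Nfe2l2 by -0.05, and Txnrd1, Sod3, Srxn1 and Gclm by 0.03 or less either way, all with an exact permutation p of 0.343 or more. For Gpx3, RA mouse F1 was at 1.11 and F3, M1 and M3 at 0.682, 0.728 and 0.674, within the 0.634 to 0.747 of the CS mice.

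A wider list of 58 measured genes of the NRF2 pathway and of redox enzymes sets the members among their neighbours. Over the 22 types 20 of its 970 tests passed, in 18 genes, 15 with a higher and 5 with a lower level in CS, and 11 of the 20 were in ciliated cells. That is 2.06% of the tests of the list, near the 1.31% of all 165345 gene tests, in which 1242 calls were higher and 917 lower. The 20 became 2 without the gene filter, both in ciliated cells, 10 with lane as a term, 11 without CS mouse C2 or D5 and 12 without RA mouse M3, and 29 with sex by transcripts as a term. In ciliated cells 11 of the 58 list genes passed, which is 19.0% of them against 4.55% of all genes, and 38 of the 58 were above 0. The list was chosen with earlier results of these data known, so these shares describe the list and do not test it. The 11 became 6 without C2 or D5. Without Slc7a11, which met the filter through the CS mice alone, 10 of 57 passed, or 17.5%. The median log2 difference of the list in ciliated cells was 0.04, and that of all genes tested 0.01. In 18 of the 22 types the median of the list was below 0, such as -0.12 in peribronchial fibroblasts, -0.10 in T cells (7 of 36 genes above 0), -0.08 in gCap cells (10 of 35) and -0.07 in adventitial fibroblasts (13 of 54). The median of all genes tested was below 0 in 1 of the 22 types.

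The genes that passed with a rise in CS ciliated cells came from several arms of the pathway. In each of these arms other listed genes did not pass, and some of those were lower in CS. Slc7a11, the cystine importer that feeds glutathione synthesis, was at 0.0361 in RA and 0.115 in CS (log2 difference 0.11, adjusted p = 0.00761). It was found in 16.5% of ciliated cells in CS and 4.96% in RA mice, so that it met the filter of 10% only through the CS mice, and it fell under that filter without C2 or without D5. Each of the other 10 genes was found in at least 10% of the cells in both groups. The exporters Abcc1 and Abcc4 rose from 0.50 to 0.907 (0.34, adjusted p = 0.0158) and from 0.162 to 0.334 (0.20, adjusted p = 0.00582). In the glutathione cycle, Ggt1, which breaks down extracellular glutathione, rose from 0.135 to 0.401 (0.30, adjusted p = 0.0124), and the glutaredoxin Glrx from 0.0859 to 0.175 (0.11, adjusted p = 0.00550). The group means of these 5 genes were all under 1 transcript per 10,000.

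Sod1, the cytosolic superoxide dismutase, rose in ciliated cells from 1.66 ± 0.222 to 2.59 ± 0.322 (SD, n = 4 each, log2 difference 0.43, SE 0.0788, adjusted p = 0.0168). The glutathione peroxidase Gpx1 rose from 2.0 to 2.54 (0.24, adjusted p = 0.0214). Of the enzymes listed as NRF2 targets, Blvrb (biliverdin reductase) rose from 0.279 to 0.595 (0.32, adjusted p = 0.0242), and the NADPH-producing Me1 and Idh1 rose from 0.410 to 0.704 (0.27, adjusted p = 0.0117) and from 0.0957 to 0.185 (0.11, adjusted p = 0.0212). Nfe2l3, which encodes a factor related to NRF2, fell from 0.610 to 0.363 (-0.24, adjusted p = 0.0158). The call was kept in 14 of 23 refits for Blvrb (adjusted p up to 0.114), in 16 of 23 for Gpx1 (up to 0.0771) and in 17 of 22 for Idh1 (up to 0.103), and in at least 19 refits for each of the others.

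Other named genes of the pathway did not pass in ciliated cells. Nqo1, a common read-out of NRF2, was at 0.553 in CS and 0.191 in RA mice (0.38, adjusted p = 0.0782). Txn1 (thioredoxin) differed by 0.30 (adjusted p = 0.152), Prdx1 by 0.22 (adjusted p = 0.172) and Gsr (glutathione reductase) by 0.13 (adjusted p = 0.119). Hmox1 (heme oxygenase) differed by 0.02 (adjusted p = 0.860), Keap1 by -0.02 (adjusted p = 0.799) and Bach1 by 0.08 (adjusted p = 0.0764). The summed level of the 4 ciliated markers, all detected, was 55.3 to 58.2 in CS and 55.6 to 60.8 in RA ciliated cells, and that of the dissociation response genes 46.2 to 121 and 80.2 to 124. The club markers summed to 42.4 to 73.4 in CS and 31.1 to 58.9 in RA ciliated cells, and their part in these differences was not tested.

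**Figure D5:**
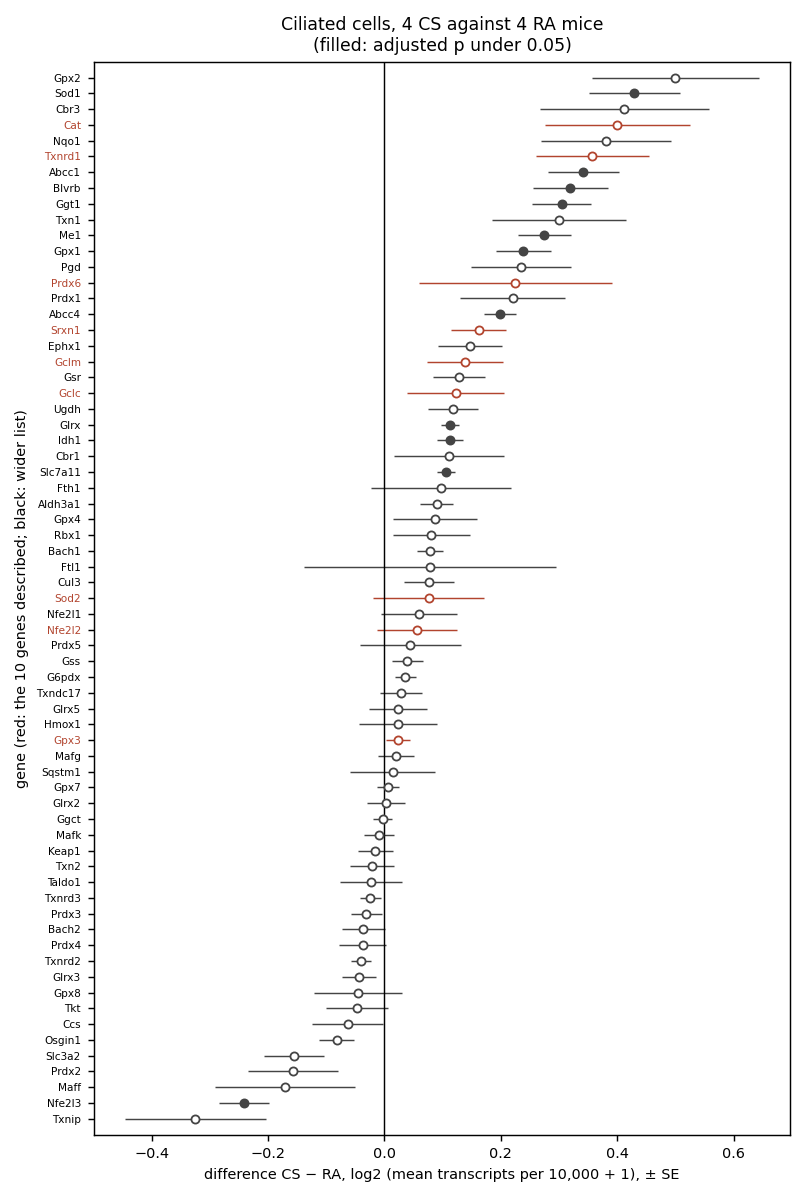
Log2 difference between CS and RA (± SE) in ciliated cells for the members and the genes of the wider list, with filled points for an adjusted p under 0.05. Of the wider list 10 genes lie above 0 with filled points and Nfe2l3 below, and no member is filled.

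Outside ciliated cells the list gave 9 further calls. In gCap cells 3 of 35 list genes passed, 8.57% against 10.8% of all genes. Ephx1 (microsomal epoxide hydrolase) rose from 0.844 to 1.60 (0.49, adjusted p = 0.0116), while Ftl1 fell from 4.35 to 2.46 (-0.64, adjusted p = 0.0155) and Taldo1 (transaldolase) from 1.17 to 0.859 (-0.22, adjusted p = 0.0264, kept in 17 of 23 refits). In aerocytes 1 of 37 passed, Ephx1, which rose from 0.926 to 1.99 (0.63, adjusted p = 0.00703). In adventitial fibroblasts 4 of 54 passed, 7.41% against 3.3%, with Slc7a11 rising from 0.191 to 0.613 (0.43, adjusted p = 0.0360) and Txnip, the inhibitor of thioredoxin, from 1.02 to 1.76 (0.46, adjusted p = 0.0290). There Ugdh fell from 4.12 to 2.22 (-0.67, adjusted p = 0.0171) and the ferritin heavy chain Fth1 from 97.4 to 74.6 (-0.38, adjusted p = 0.0393). The call was kept in 9 of 23 refits for Fth1 (adjusted p up to 0.740), in 13 of 22 for Slc7a11 (up to 0.164), in 15 of 23 for Txnip (up to 0.136) and in 20 of 23 for Ugdh. In alveolar fibroblasts 1 of 51 passed, Bach1, which rose from 0.381 to 0.631 (0.24, adjusted p = 0.0443), a call kept in 11 of 23 refits (adjusted p up to 0.155). The same gene names did not recur across types apart from Ephx1 and Slc7a11.

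Sod1 was above 0 in all 21 types in which it was tested, with log2 differences from 0.06 to 0.58, though it passed in ciliated cells alone. It was above 0 in 20 of 21 with lane as a term or without CS mouse C2, and in 23 of 25 with at least 10 cells per mouse. The count for Sod1 was picked out after its values were seen. Keap1 was below 0 in 15 of 20 types and passed in none (smallest adjusted p = 0.102), and Hmox1 was below 0 in 9 of 12 and passed in none (smallest adjusted p = 0.102).

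Of the 53 list genes with a RefSeq promoter window 12 held TGACNNNGC, 22.6% against 14.0% of all genes. Of the 9 genes that rose in ciliated cells and had a window 4 held it, Sod1, Ggt1, Me1 and Abcc4. The list was chosen with earlier results known and these 9 by their result here, so the counts are a description and no test.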

How the data were processed

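Single-cell RNA-seq (10x Genomics 3′ v3) of the lungs of 4 CS and 4 RA mice was analysed. Per the study's methods and the submitters' processing notes, which name STARsolo, the authors aligned reads with STAR 2.7.3a to GRCm38.p6, counted spliced and unspliced UMIs, corrected for free RNA with SoupX and assigned type names to clusters. The deposited matrix holds these corrected, estimated counts, of which 1.28% are whole numbers (within 1e-06), unscaled. The deposited percent of mitochondrial transcripts served 1 alternative, since 1628 deposited cells exceed 5%. Cells labelled multiplet (1025) or cell cycle (7) were left out of the 41106.

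Each cell was scaled to 10000 transcripts and averaged per mouse and type. Types needed at least 20 cells in at least 3 mice of each group (22 types) or in all 8 mice (17 types). Genes present in 10% or more of a type's cells, both groups together, were tested with limma 3.58.1 (R 4.3.3, with an intensity trend) on log2 of the mean plus 1, with Benjamini-Hochberg adjustment over all genes of the type at 0.05. Fold changes on that scale understate those of low genes. Exact tests were two-sided, over 70 assignments of the mice or over sign flips of 8 paired differences, and the scripts were tested on simulated data. Alternatives covered pseudocount, filter, lane, sex, scaling, averaging, cell number, test and mice. Lane numbers from the sample descriptions pair 1 CS with 1 RA library, and replicate numbers only name the mice. The comparison of alveolar with interstitial macrophages was not run, as too few interstitial macrophages were present. The sex term was read from each library as a technical covariate after 4 libraries went against their labels.

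The members and gene lists were chosen with earlier results of these data known. All 10 members are named. Of the wider list, 10 genes chosen by name (Keap1, Bach1, Nqo1, Hmox1, Gsr, Txn1, Slc7a11, Prdx1, Sod1 and Gpx1) and every gene that passed in at least 1 type are named, and for likeness the 3 genes with the highest r. For likeness, 1 of these is not reported here. Gene positions came from GENCODE on GRCm38. UMI counts at the 3′ end were not used to compare levels between genes.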

Additional observations from a re-analysis of the deposited data

Results flagged for a closer look

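Values of 6 single mice and 1 difference between cell types met the criteria set for a closer look. In 75 groups of 4 mice, the highest or lowest mouse was checked against Dixon's critical value, and 6 groups were past it. The groups came from member values with an unadjusted limma p under 0.05 or without overlap, and from the means over types. Chance gives about 1 in 20 for unselected and independent groups, which these are not. Cat in ciliated cells was at 2.56 in CS mouse C5, below the other 3 CS mice. Prdx6 in AT2 cells was at 8.46 in RA mouse F1, above the other 3 RA mice. In the mean over 17 types, on the scale log2 of the mean plus 1, Nfe2l2 was at 2.03 in RA mouse M3, the highest of its group, and Txnrd1 at 0.95 in CS mouse C2, the lowest of its group. In the same mean Sod3 was at 0.37 in CS mouse D2 and Gpx3 at 1.11 in RA mouse F1, each the highest of its group. The exposure difference of Sod2 differed between AT2 and AT1 cells by 0.40 on the log2 scale, by the test of that difference itself.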

How the results depend on the processing

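For the members, the count of 0 calls became 1 with quantile normalization (Prdx6 in AT1 cells, adjusted p = 0.00134), 3 with sex by transcripts as a term, and 27 with the Wilcoxon test over single cells (9 higher, 18 lower in CS), which treats cells of 1 mouse as independent. Leaving out 1 mouse at a time gave 0 to 2, and every other alternative gave 0. The 28 member values with an unadjusted limma p under 0.05 or without overlap between the groups were refitted. All 640 refits kept their direction, which this selection favours, and 633 also kept their side of the threshold. The 20 calls of the wider list became 2 without the gene filter, where more genes are tested, and 10 with lane as a term, of which 9 were among the 20. Leaving out 1 mouse gave 11 to 22, with 11 without C2 or D5 and 12 without M3. Summed counts gave 24 calls, 14 higher and 10 lower, and the filter at 25% of cells 11 higher and 9 lower, against 15 and 5. The 11 list calls in ciliated cells became 6 without C2 and 6 without D5. The 1 member call between paired types became 0 with pseudocount 0.1 and with lane as a term, and 0 to 1 without 1 mouse, the 1 being Sod2 without M1 (adjusted p = 0.0291) and Prdx6 between club and ciliated cells without D2 (adjusted p = 0.0487). The 8 members whose leading type passed against the next became 6 to 8 without 1 mouse, those lost being Gclc and Txnrd1. The cause of these changes was not tested. Prdx6 was lower in CS in 14 to 19 of 22 types without 1 mouse. The smallest library of a tested type held 23 cells, so that a gene as low as Srxn1 rested on few transcripts there.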
